A study of Mus musculus with 6 samples.

Results

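The integrin genes examined here were Itga1, Itga2, Itga3, Itga5, Itga6, Itgav, Itgb1, Itgb3, Itgb6 and Itgb8, taken by name as subunits of receptors that bind matrix proteins or latent TGF-β. They are 10 of the 46517 genes in the count files, and all 10 had enough counts to be tested. The libraries are RNA sequencing of primary renal tubule epithelial cells (RTECs) cultured from kidneys of wild-type FvB mice, in medium with 10% fetal bovine serum and 20 ng/ml EGF. All cultures were then held in serum-free medium for 24 h. The 3 TGF-β1–treated cultures received 50 ng/ml TGF-β1 for 24 h, and 3 control (CTL) cultures were sequenced with them. The sample labels give an age of 4 to 6 weeks, whereas the methods give a younger, overlapping range and name males. Neither the labels nor the methods say how many animals went into a culture. P-values therefore measure the spread between cultures, which may be partly technical.

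Integrins are receptors made of 1 α and 1 β subunit, and they join the matrix outside the cell to the actin cytoskeleton inside it. The α subunit largely sets the ligand. With the β1 subunit, α1 and α2 bind collagens, α3 and α6 bind laminins of the basement membrane, and α5 binds the Arg-Gly-Asp (RGD) motif of fibronectin. The αv subunit pairs with several β subunits, and αvβ6 and αvβ8 bind RGD in the latency peptide that holds TGF-β inactive. αvβ6 is known as an epithelial receptor that releases active TGF-β and that appears on injured kidney tubules.

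Counts on genes summed to 28313080 to 34183497 per library, so that a floor of 3 counts equals 0.0878 to 0.106 CPM (counts scaled to a library total of 1e6). The epithelial markers Epcam, Cdh1, Krt8, Krt18, Cdh16 and Pax8 were present in all cultures, with a summed level of 960 to 2553 CPM in CTL and 839 to 2109 CPM in TGF-β1–treated cultures. Of these 6 markers Cdh16 and Pax8 fell and the others did not pass the test. In the edgeR fit that also carried replicate number as a term (a block), Epcam (log2 fold change -0.15, adjusted p = 0.0376) and Cdh1 (-0.18, adjusted p = 0.0194) were lower too. Krt8 and Krt18 did not pass with the block. The 6 proximal tubule markers summed to 67.7 to 80.3 CPM in CTL and 34.7 to 47.7 CPM with TGF-β1, and of these Lrp2 fell (log2 fold change -0.93, adjusted p = 0.0165). Hnf4a, at 0.617 CPM on average, did not pass without the block (log2 fold change -1.53, adjusted p = 0.0591) and passed with it (adjusted p = 0.00448). Several markers of mature nephron segments were near the floor, and the proximal transporter Slc34a1 averaged 0.155 CPM and the collecting duct channel Aqp2 averaged 0.0851 CPM. Of the 4 fibroblast and pericyte markers tested, 0 passed in edgeR, in DESeq2 or at an unadjusted p of 0.05, and the sum of all 6 was 78.2 to 241 CPM in CTL and 51.4 to 123 CPM with TGF-β1. With the block, Pdgfrb (log2 fold change -0.86, adjusted p = 0.000431) and Dcn (-1.21, adjusted p = 0.0256) were lower. The other markers tested, Pdgfra (0.33, adjusted p = 0.322) and Thy1 (0.33, adjusted p = 0.251), had positive values and did not pass with it. Leukocyte markers summed to 3.83 to 8.45 CPM over all 6 libraries, and of them Csf1r fell (log2 fold change -1.32, adjusted p = 0.0238). The endothelial markers summed to 0.885 to 2.68 CPM. The podocyte markers summed to 409 to 577 CPM in CTL and 325 to 381 CPM with TGF-β1. Most of that sum was Synpo (389 CPM on average), and the slit diaphragm gene Nphs1 averaged 0.0520 CPM. Synpo and Podxl lay below CTL in all TGF-β1–treated cultures without passing the unpaired test (log2 fold change -0.52, adjusted p = 0.0739, and -0.44, adjusted p = 0.0994), and both passed with the block (adjusted p = 0.00662 and 0.0199). Both cultures numbered 2 stood apart, since their epithelial sums were the lowest of their groups (960 and 839 CPM) and their fibroblast and pericyte sums the highest (241 and 123 CPM). Most of the latter sum was Pdgfrb (101 CPM on average), which like Dcn (5.11 CPM) was highest in both cultures numbered 2. Thy1 (1.31 CPM) and Pdgfra (1.25 CPM) were instead lowest there. Of the epithelial markers, Epcam, Cdh1, Krt8 and Krt18 were lowest in both cultures numbered 2. In CTL, Pax8 was highest in replicate 2 and Cdh16 lowest in replicate 3, though both were lowest in TGF-β1 replicate 2. The proximal tubule sum was the highest of its group in CTL replicate 2 (80.3 CPM) and the lowest in TGF-β1 replicate 2 (34.7 CPM). Both cultures numbered 2 also held 142 to 151 CPM of Y-linked transcripts, against at most 0.172 CPM in the other libraries. The X-linked transcript Xist was present in all 6 libraries, at 237 CPM in CTL replicate 2, 207 CPM in TGF-β1 replicate 2 and 516 to 634 CPM in the others. The methods name male mice, for which Y-linked transcripts would be present in every library. These transcripts thus differed between replicate numbers, and the sex behind each culture was not tested.

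TGF-β1 changed 4 of the 10 integrin genes in the unpaired test. Itgb3, Itga5 and Itgb1 rose, by 2.78, 2.45 and 1.47 fold, and Itga1 fell to 0.362 of its CTL level. Among all 15862 genes tested, 793 (5.00%) rose and 1061 (6.69%) fell at an adjusted p of 0.05 (edgeR quasi-likelihood test). The other 6 members, Itga2, Itga3, Itga6, Itgav, Itgb6 and Itgb8, did not pass this test. The cultures were taken to pair by replicate number, although the labels do not say whether same-numbered cultures share animals. With that number as a block all 10 members passed, 4 higher and 6 lower. Of all genes tested, 2388 (15.1%) were then higher and 3037 (19.1%) lower. Without replicate 2 in both groups the 4 calls held, at log2 fold changes of 1.50 for Itgb3, 1.10 for Itga5, 0.49 for Itgb1 and -1.18 for Itga1, and Itgb8 also passed, against 1084 (6.79%) higher and 1290 (8.09%) lower of all 15955 genes tested in that fit. Without replicate 1 in both groups 0 genes passed in edgeR, while 1938 had an unadjusted p under 0.05. The groups did not overlap for 5 members. TGF-β1–treated cultures lay above CTL for 3 members, against 17.2% of all genes, and below CTL for 2, against 18.0%. The median log2 fold change was -0.29 over the members and -0.0028 over all genes. In bulk RNA, fewer cells of a type and less RNA per cell cannot be told apart.

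**Figure D1:**
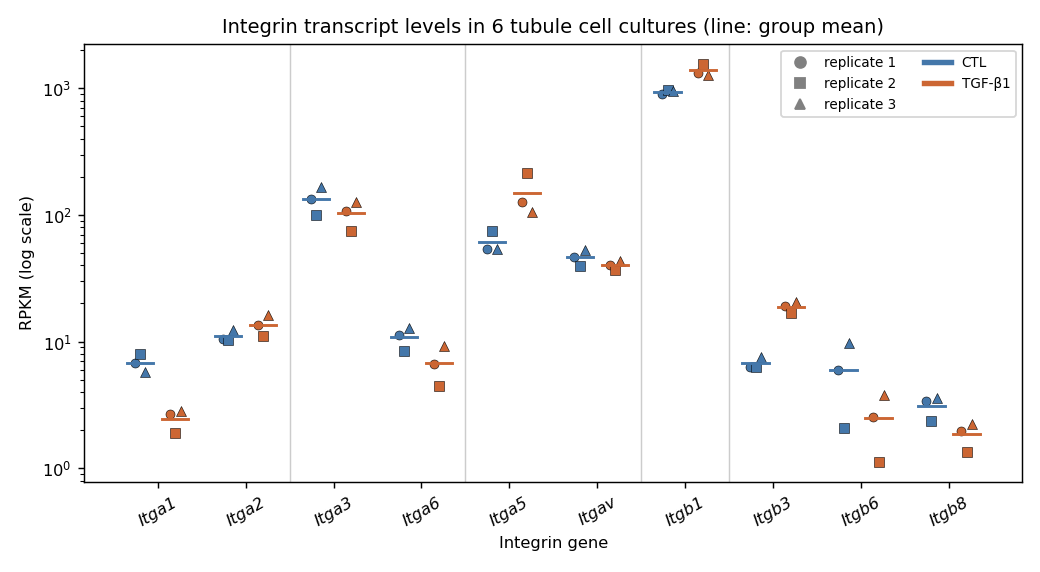
Transcript level of each integrin gene in each culture, as RPKM (CPM per kb of exon, log scale), with marker shapes for replicate numbers and a line at each group mean. Itgb1 lies above every other gene in all 6 cultures, and the TGF-β1–treated cultures lie above CTL for Itga5, Itgb1 and Itgb3 and below CTL for Itga1 and Itgb8.

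Levels are compared between genes as RPKM, the CPM divided by exon length in kb. Itgb1, the common β partner, was the most abundant, at 942 ± 39.3 RPKM in CTL and 1385 ± 152 RPKM with TGF-β1 (mean ± SD, n = 3 here and throughout). In CTL it was followed by Itga3 (133 ± 33.7 RPKM), Itga5 (60.8 ± 11.7 RPKM) and Itgav (46.3 ± 6.63 RPKM), and the ranges of these 4 genes did not overlap. Itga2 (11.0 ± 1.13 RPKM) and Itga6 (10.8 ± 2.27 RPKM) came next and overlapped each other. Below them Itga1 (6.82 ± 1.14 RPKM), Itgb3 (6.75 ± 0.735 RPKM), Itgb6 (5.91 ± 3.84 RPKM) and Itgb8 (3.10 ± 0.657 RPKM) formed a low group in which each gene overlapped the next. In TGF-β1–treated cultures Itga5 (149 ± 57.8 RPKM) stood second, with a range that overlapped that of Itga3 (103 ± 26.7 RPKM), and both exceeded Itgav (40.1 ± 3.35 RPKM). Itgb3 came next, at 18.8 ± 1.73 RPKM, above Itga2 (13.6 ± 2.60 RPKM) and Itga6 (6.79 ± 2.41 RPKM). Itgb6 (2.48 ± 1.35 RPKM), Itga1 (2.47 ± 0.490 RPKM) and Itgb8 (1.85 ± 0.456 RPKM) were lowest and overlapped in turn. Itgb1 alone was 3.54 ± 0.461 times the summed RPKM of the 6 α members in CTL and 4.39 ± 0.174 times that sum with TGF-β1.

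Promoter windows were examined for 3 of the 4 genes that changed, to show the letters at their annotated starts. RefSeq promoters (build GRCm38.p6, 250 bases before to 50 bases after the start) were found for 8 of the 10 members in 10 windows. Itgb3 and Itga6 had none listed. The windows of Itga1 (chr13:115101915-115102214, minus strand), Itga5 (chr15:103366742-103367041, minus strand) and Itgb1 (chr8:128685404-128685703, plus strand) are printed 5′ to 3′, with capitals for each match to CAGAC (the SMAD-binding letters), GGGCGG (the SP1 letters) or TGANTCA (the AP-1 letters) on either strand.
Itga1: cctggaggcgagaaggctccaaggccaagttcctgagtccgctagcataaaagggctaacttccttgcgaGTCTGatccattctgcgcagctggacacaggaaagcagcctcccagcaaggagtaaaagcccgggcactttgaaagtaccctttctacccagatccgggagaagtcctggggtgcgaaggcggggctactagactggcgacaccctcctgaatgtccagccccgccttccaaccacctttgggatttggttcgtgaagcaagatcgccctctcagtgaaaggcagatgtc
Itga5: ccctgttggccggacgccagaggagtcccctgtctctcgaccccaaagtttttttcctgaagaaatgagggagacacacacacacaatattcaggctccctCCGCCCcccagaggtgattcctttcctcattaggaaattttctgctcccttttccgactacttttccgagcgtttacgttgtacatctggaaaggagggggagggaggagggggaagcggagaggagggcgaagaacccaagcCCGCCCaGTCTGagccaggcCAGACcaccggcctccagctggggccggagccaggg
Itgb1: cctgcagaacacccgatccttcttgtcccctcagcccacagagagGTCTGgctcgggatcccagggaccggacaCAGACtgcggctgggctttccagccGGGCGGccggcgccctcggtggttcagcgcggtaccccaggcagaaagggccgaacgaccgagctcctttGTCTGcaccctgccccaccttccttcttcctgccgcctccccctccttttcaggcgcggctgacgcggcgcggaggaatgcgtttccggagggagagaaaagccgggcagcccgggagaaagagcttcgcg
CAGAC matched 1 time in the window of Itga1, 2 times in that of Itga5 and 3 times in that of Itgb1. GGGCGG matched 2 times in Itga5 and 1 time in Itgb1. Over the 10 windows CAGAC was in 7, GGGCGG in 6 and TGANTCA in 1, a second start of Itga3, and no matches of different motifs overlapped. Of all 32851 RefSeq promoter windows of this length, 49.6% held CAGAC, 35.7% held GGGCGG and 7.81% held TGANTCA. A match describes letters only and is not evidence of binding.

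Of the collagen-binding α subunits, Itga1 fell and Itga2 did not pass the unpaired test. Itga1 (chr13:114953096-115101964, minus strand) encodes α1, which prefers basement membrane collagen IV. Its normalized counts were 3968, 4717 and 3373 in CTL replicates 1, 2 and 3 and 1587, 1124 and 1654 in TGF-β1 replicates 1, 2 and 3. All TGF-β1–treated cultures lay below all CTL cultures, and the log2 fold change was -1.47 (SE 0.19, adjusted p = 0.0102). The call was lost without CTL replicate 1 (adjusted p = 0.0556) or TGF-β1 replicate 1 (adjusted p = 0.0505). An annotated gene that was not in the count files, Gm49395, shares 685 bases (3.68%) of its exons on the same strand. Itga2 (chr13:114833081-114932100, minus strand), the neighbouring gene, encodes α2, which prefers fibrillar collagens. Its normalized counts were 2374, 2308 and 2778 in CTL and 3048, 2498 and 3674 in TGF-β1–treated cultures. The groups overlapped, because TGF-β1 replicate 2 lay below CTL replicate 3, and the log2 fold change was 0.31 (SE 0.15, adjusted p = 0.247). Each same-numbered pair was higher with TGF-β1, and with the replicate block the value was 0.29 (adjusted p = 0.00785).

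The laminin-binding α subunits were lower with TGF-β1 in every same-numbered pair, but neither passed the unpaired test. Itga3 (chr11:95044474-95076801, minus strand) encodes α3, which with β1 holds kidney epithelium to laminin. It had 24153, 17965 and 30155 normalized counts in CTL and 19578, 13432 and 22968 in TGF-β1–treated cultures. The groups overlapped, with replicate 2 lowest in each, and the log2 fold change was -0.37 (SE 0.26, adjusted p = 0.407, or 0.000881 with the block). Itga6 (chr2:71745616-71858416, plus strand) encodes α6, which pairs with β1 or β4. It had 3217, 2392 and 3673 normalized counts in CTL and 1917, 1268 and 2644 in TGF-β1–treated cultures. CTL replicate 2 lay within the TGF-β1 range, and the log2 fold change was -0.67 (SE 0.29, adjusted p = 0.192, or 0.000694 with the block at -0.71).

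Of the RGD-binding α subunits, Itga5 rose and Itgav did not pass the unpaired test. Itga5 (chr15:103344286-103366763, minus strand) encodes α5, the α subunit of the main fibronectin receptor. It had 8492, 11616 and 8392 normalized counts in CTL and 19852, 33495 and 16395 in TGF-β1–treated cultures. Every TGF-β1–treated culture exceeded every CTL culture, and replicate 2 was the highest of each group. The log2 fold change was 1.29 (SE 0.29, 95% interval 0.58 to 2.01, adjusted p = 0.0429). This call was lost when any CTL culture was left out (adjusted p 0.167, 0.0634 and 0.109 without CTL replicates 1, 2 and 3) or without TGF-β1 replicate 1 (adjusted p = 0.106). Itga5 also missed the threshold when all genes with at least 1 count were tested (adjusted p = 0.140). Without replicate 2 in both groups its log2 fold change was 1.10 (adjusted p = 0.00298). Itgav (chr2:83724397-83806916, plus strand) encodes αv, the partner of β3, β6 and β8. It had 15930, 13430 and 17936 normalized counts in CTL and 13705, 12486 and 14765 in TGF-β1–treated cultures. The groups overlapped, and the log2 fold change was -0.21 (SE 0.12, adjusted p = 0.311, or 0.0181 with the block at -0.20). The exons of Itgav overlap the opposite-strand gene Gm13684 over 634 bases (5.90%), and Gm13684 itself had 0 to 3 counts per library.

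Itgb1 (chr8:128685654-128733200, plus strand), which encodes the β partner of α1, α2, α3, α5, α6 and αv, rose. It had 116047, 125503 and 123975 normalized counts in CTL and 170694, 201587 and 165081 in TGF-β1–treated cultures. The groups did not overlap, with a log2 fold change of 0.56 (SE 0.10, 95% interval 0.31 to 0.80, adjusted p = 0.0228). The adjusted p was 0.120, 0.0540 and 0.0541 without CTL replicates 1, 2 and 3, and 0.0837 without TGF-β1 replicate 1.

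Of the β partners of αv, Itgb3 rose, and Itgb6 and Itgb8 were lower in each same-numbered pair. Itgb3 (chr11:104608000-104670476, plus strand) encodes β3, which with αv binds vitronectin, osteopontin and fibronectin. It had 1185, 1181 and 1421 normalized counts in CTL and 3544, 3168 and 3812 in TGF-β1–treated cultures. The lowest TGF-β1–treated culture lay above the highest CTL culture, and the log2 fold change was 1.48 (SE 0.10, 95% interval 1.23 to 1.72, adjusted p = 0.00216). Transcripts of platelet markers, whose cells also carry β3, summed to 6.80 to 17.7 CPM in CTL and 9.52 to 16.8 CPM with TGF-β1. Most of that sum was Ppbp (9.87 CPM on average), while Itga2b averaged 1.63 CPM, Gp1ba 0.798 CPM, Pf4 0.200 CPM and Gp9 0.0366 CPM. Itgb3 was the 1 member past the threshold in all 6 fits that left out a single culture.

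Itgb6 (chr2:60598292-60722643, minus strand) encodes β6, which is made by epithelial cells and pairs with αv alone. It had 1333, 467 and 2199 normalized counts in CTL and 567, 252 and 860 in TGF-β1–treated cultures. The groups overlapped, and CTL replicate 2 lay below TGF-β1 replicates 1 and 3. The log2 fold change was -1.25 (SE 0.65, 95% interval -2.84 to 0.34, adjusted p = 0.269). With the block it was -1.19 (SE 0.09, adjusted p = 5.41e-05), and the 3 pairs gave -1.23, -0.89 and -1.35. Without replicate 2 in both groups the unpaired value was -1.30 (adjusted p = 0.0503), and it was -0.68 without CTL replicate 3 (adjusted p = 0.566) and -1.70 without TGF-β1 replicate 3 (adjusted p = 0.231). Itgb8 (chr12:119158022-119238802, minus strand) encodes β8, whose cytoplasmic tail does not bind the usual adaptors. It had 1185, 824 and 1252 normalized counts in CTL and 693, 472 and 782 in TGF-β1–treated cultures. All TGF-β1–treated cultures lay below all CTL cultures, the highest of them at 782 against 824. Itgb8 did not pass the unpaired test (log2 fold change -0.74, SE 0.24, adjusted p = 0.0995), and it passed with the block (adjusted p = 6.30e-05), with DESeq2 (adjusted p = 0.0189) and without replicate 2 in both groups (adjusted p = 0.00556).

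**Figure D2:**
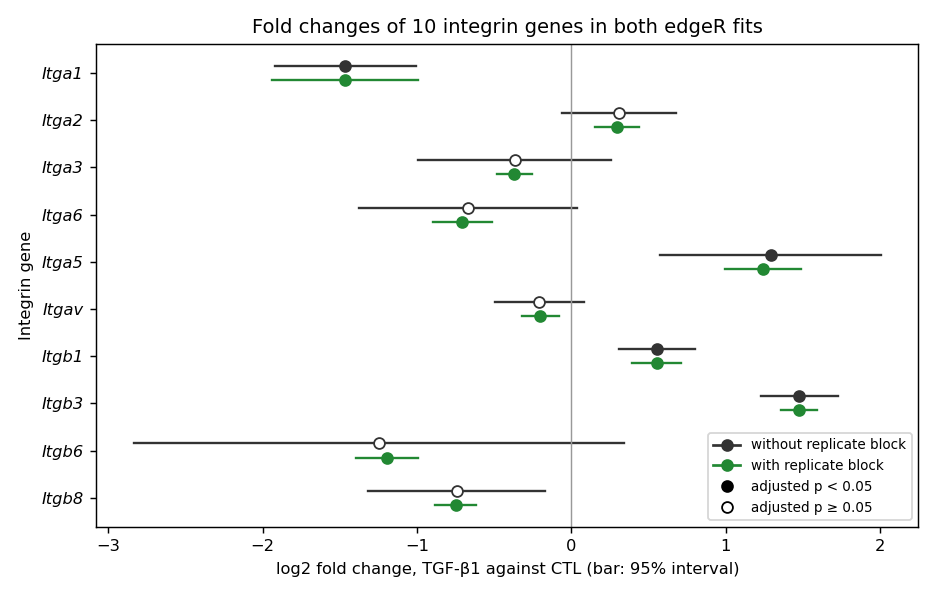
Log2 fold change of each integrin gene in TGF-β1–treated against CTL cultures, with its 95% interval, from edgeR without and with the replicate number as a block. Filled points have an adjusted p under 0.05, which holds for 4 genes without the block and for all 10 with it.

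Replicate numbers ordered several members alike in both groups. For 7 members (Itga2, Itga3, Itga6, Itgav, Itgb3, Itgb6 and Itgb8), replicate 2 was lowest and replicate 3 highest in CTL and again in TGF-β1–treated cultures. How many of all genes had this order was not computed, so it cannot be read as particular to the members. The summed epithelial markers had the same order, with 1859, 960 and 2553 CPM in CTL replicates 1, 2 and 3 and 1696, 839 and 2109 CPM in TGF-β1 replicates 1, 2 and 3. Epcam, Cdh1, Krt8 and Krt18 each had this order, but Pax8 in either group and Cdh16 in CTL did not. Itga5 had the order opposite to that of the 7 members, and so had the fibroblast and pericyte sum, most of which was Pdgfrb. That sum was 107, 241 and 78.2 CPM in CTL and 56.0, 123 and 51.4 CPM in TGF-β1–treated cultures. The part of these cell markers in the integrin results was not tested. Within pairs the direction was the same in all 3 numbers for all 10 members, positive for 4 and negative for 6. The share of all genes with the same direction in all 3 pairs was not computed, so this count cannot be read as particular to the members. Itga1 had the widest spread of the pair ratios, at -1.32, -2.07 and -1.03 on the log2 scale in replicates 1, 2 and 3. Itga3 and Itgb8 varied least among the genes that were lower in pairs, from -0.42 to -0.30 and from -0.80 to -0.68.

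**Figure D3:**
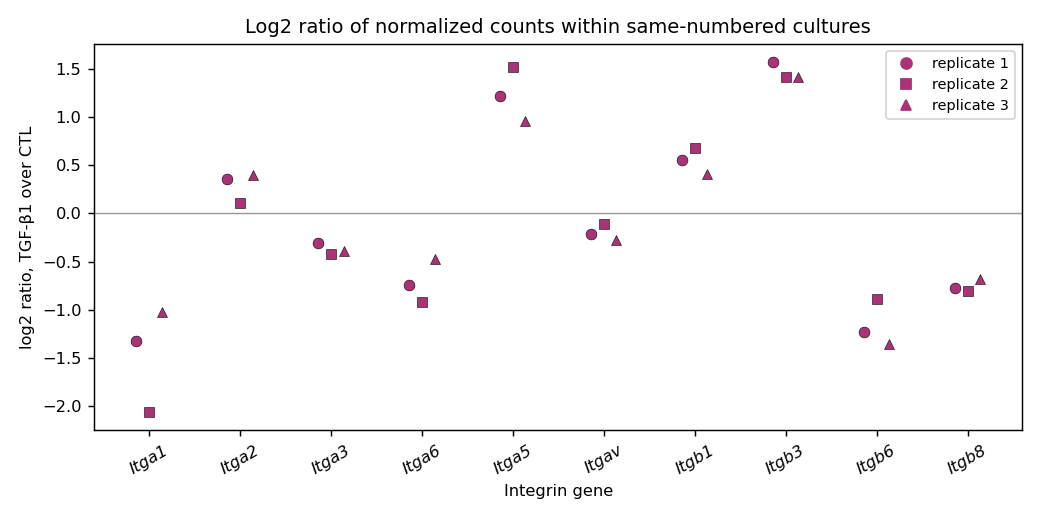
Log2 ratio of normalized counts, TGF-β1–treated over CTL culture, for each replicate number and integrin gene. All 3 ratios lie above 0 for Itga2, Itga5, Itgb1 and Itgb3 and below 0 for the other 6 genes.

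The balance of α transcripts within a library was compared next, since it needs no scaling between libraries. Itga5 made up 23.1 ± 7.00% of the counts per kb of the 6 α members in CTL and 46.6 ± 14.4% in TGF-β1–treated cultures. Itga3 made up 49.0 ± 6.87% and 33.3 ± 10.4%, and Itgav 17.2 ± 0.673% and 12.8 ± 1.88%. Itga1 (2.59 ± 0.729% and 0.794 ± 0.206%), Itga2 (4.10 ± 0.143% and 4.37 ± 1.07%) and Itga6 (4.00 ± 0.440% and 2.20 ± 0.877%) were minor in both groups. The log2 ratio of Itga5 and Itgav to Itga3 and Itga6 was -0.52, 0.08 and -0.75 in CTL replicates 1, 2 and 3. It was 0.54, 1.67 and 0.12 in TGF-β1–treated cultures, so that the groups did not overlap. The difference of the means was 1.18, with p = 0.1 in a two-sided exact permutation test, the smallest p that 3 cultures against 3 allow. It was 0.73 without TGF-β1 replicate 2 (exact permutation p = 0.2) and 0.97 without replicate 2 in both groups. With raw counts in place of counts per kb it was 0.93, and the groups then overlapped (exact permutation p = 0.2). The log2 ratio of the collagen-binding Itga1 and Itga2 to the laminin-binding Itga3 and Itga6 was -2.98 ± 0.38 in CTL and -2.76 ± 0.13 with TGF-β1. These groups overlapped (difference 0.23, exact permutation p = 0.5). The difference was 0.06 without CTL replicate 3, 0.44 without CTL replicate 2 (exact permutation p = 0.1), 0.15 without TGF-β1 replicate 2, 0.36 without replicate 2 in both groups and 0.10 without replicate 3 in both groups.

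Among β partners of αv other than β1, Itgb5 carried most of the transcripts, with 89.8 ± 4.18% of the summed counts per kb in CTL and 85.3 ± 2.77% with TGF-β1. The share of Itgb3 was 4.14, 3.51 and 5.20% in CTL and 12.8, 10.1 and 13.0% in TGF-β1–treated cultures, without overlap. The share of Itgb6 was 3.86, 1.15 and 6.68% in CTL and 1.70, 0.667 and 2.42% in TGF-β1–treated cultures. These groups overlapped, and the difference of the means was -2.30 percentage points (two-sided exact permutation test, p = 0.3). It was -0.909 points without CTL replicate 3, -3.67 without CTL replicate 2, -3.21 without replicate 2 in both groups, -1.32 without replicate 3 in both groups, and -4.07 with raw counts in place of counts per kb. Itgb8 made up 1.99 ± 0.601% and 1.19 ± 0.333%.

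**Figure D4:**
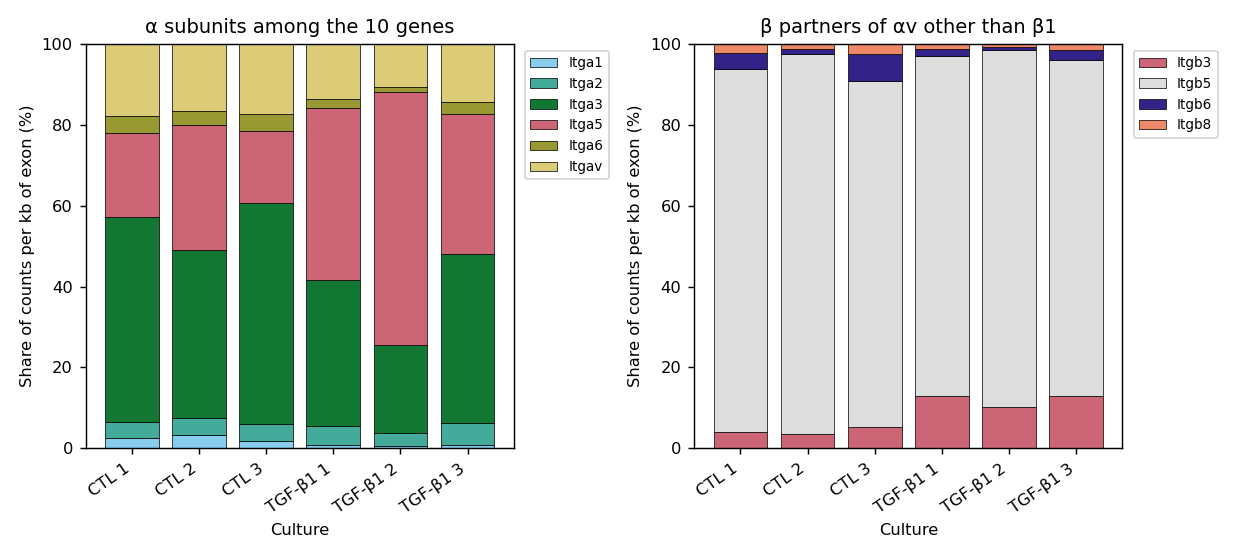
Share of each subunit in the summed counts per kb of exon, by culture, for the 6 α genes (left) and for Itgb3, Itgb5, Itgb6 and Itgb8 (right). Itga5 takes 46.6% of the α sum on average with TGF-β1 against 23.1% in CTL, and Itgb3 takes 12.0% of the β sum against 4.28%.

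Ligands of these receptors were read in the same test, from lists of the integrin system. Of 11 tested genes of RGD and matricellular ligands, 3 rose and 1 fell (median log2 fold change 0.42). Tnc, an adhesion-modulating glycoprotein, rose by 1.66 on the log2 scale (adjusted p = 0.00121), and Fn1, fibronectin itself, rose by 1.04 (adjusted p = 0.00379). Edil3, an RGD protein bound by αvβ3 and αvβ5, rose by 1.18 (adjusted p = 0.0162). Npnt, nephronectin, a basement membrane protein first known as a ligand of α8β1, fell by 1.53 (adjusted p = 0.0120). Of 8 tested genes in the latent TGF-β list, 2 passed, both higher (median 0.32). Tgfb1 rose by 0.80 (adjusted p = 0.0225), and Ltbp2, a latent TGF-β binding protein family member that fastens to microfibrils, rose by 0.42 (adjusted p = 0.0194). Tgfb2 and Tgfb3 did not pass, at 0.43 (adjusted p = 0.0865) and 0.19 (adjusted p = 0.731).

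The RGD motif that α5β1 and the αv integrins read was found in the coding sequence of several of these ligands. Stretches of 45 bases around it are shown for the called ligands and for the 2 TGF-β genes that hold it, from GENCODE M21 transcripts on GRCm38, 5′ to 3′, with the Arg, Gly and Asp codons in capitals.
Fn1: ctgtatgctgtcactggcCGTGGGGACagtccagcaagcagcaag
Edil3: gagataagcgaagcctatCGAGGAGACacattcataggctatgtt
Npnt: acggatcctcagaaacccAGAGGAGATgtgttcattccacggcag
Tgfb1: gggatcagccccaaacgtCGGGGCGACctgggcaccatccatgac
Tgfb3: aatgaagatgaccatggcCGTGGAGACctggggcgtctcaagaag
The motif of Fn1 starts at codon 1614 of 2477 (chr1:71606728-71606772, exon 30), and a second one at codon 2181. That of Edil3 starts at codon 96 (chr13:89042473-89042517, exon 4). In Npnt it starts at codon 430, and the stretch runs over the junction of exons 10 and 11 (chr3:132891478-132904691). In Tgfb1 it starts at codon 244 of 390, over the junction of exons 4 and 5 (chr7:25696995-25697168), and in Tgfb3 at codon 261 of 412 in exon 5 (chr12:86062147-86062191). Tgfb2 and Tnc held 0 in-frame RGD codons in the transcripts used.

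Collagen and laminin genes were read in the same way. Of 5 collagen genes 0 passed in edgeR without the block, in DESeq2 or at an unadjusted p of 0.05 (median log2 fold change -0.08). With the block 2 were higher, Col1a1 (0.37, adjusted p = 0.00628) and Col1a2 (0.73, adjusted p = 0.0145). The 2 lower were Col4a1 and Col4a2. Of all genes tested, 15.1% were higher and 19.1% lower with the block. The most abundant collagen gene, Col4a1, a chain of the network collagen that α1β1 binds, stood at -0.44 (adjusted p = 0.260, or 0.000885 with the block at -0.43). Of 10 laminin genes 1 passed, and it fell (median -0.16). It was Lama4, a laminin α chain typical of vessels and mesenchyme, which had 84.1, 64.5 and 68.7 normalized counts in CTL and 31.5, 11.4 and 31.9 in TGF-β1–treated cultures (log2 fold change -1.53, adjusted p = 0.0476). With the block 1 laminin gene was higher and 4 were lower.

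Of the 17 other integrin subunits 12 were tested, and 1 passed, which rose (median log2 fold change -0.19). Itga7, the α subunit of a laminin receptor best known in muscle, rose from 1.11 ± 0.0683 to 1.69 ± 0.114 RPKM (log2 fold change 0.60, adjusted p = 0.0133). Itgb5, the most abundant of them, held 144 ± 22.8 RPKM in CTL and 135 ± 12.1 RPKM with TGF-β1 (log2 fold change -0.10, 95% interval -0.41 to 0.21, adjusted p = 0.666). Itgb4, the hemidesmosomal partner of α6, stood at 29.8 ± 10.1 and 33.9 ± 15.1 RPKM (adjusted p = 0.812). Itga11, a collagen receptor subunit of fibroblasts, had 2654, 5601 and 1479 normalized counts in CTL and 1231, 2260 and 801 in TGF-β1–treated cultures. Replicate 2 was the highest of each group for Itga11, as for Pdgfrb and the fibroblast and pericyte sum. The log2 fold change of Itga11, -1.18, did not pass (adjusted p = 0.243, or 6.32e-05 with the block). Itga9, whose product binds tenascin C, stood at -0.52 (adjusted p = 0.0856). Itga2b, the platelet partner of β3, averaged 0.284 RPKM in CTL and 0.314 RPKM with TGF-β1, while Itgb3 had 6.75 and 18.8 RPKM. Itga10, Itgb2 and Itgb2l each averaged at most 0.425 RPKM in either group.

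Genes that act on integrins inside the cell, and partners in the membrane, were counted last. Of 24 activation and adhesion adaptors, 1 rose and 1 fell (median log2 fold change 0.11). Src, a kinase of adhesion signaling, rose by 0.30 (adjusted p = 0.0355), and Kank1, which links talin to the cell cortex around adhesions, fell by 0.77 (adjusted p = 0.00399). Among 8 partners of laminin-binding integrins and hemidesmosome genes, 2 passed, both higher (median 0.09). These were the tetraspanin Cd63 (log2 fold change 0.36, adjusted p = 0.0198) and Plec, which encodes the linker plectin (log2 fold change 0.35, adjusted p = 0.0325).

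**Figure D5:**
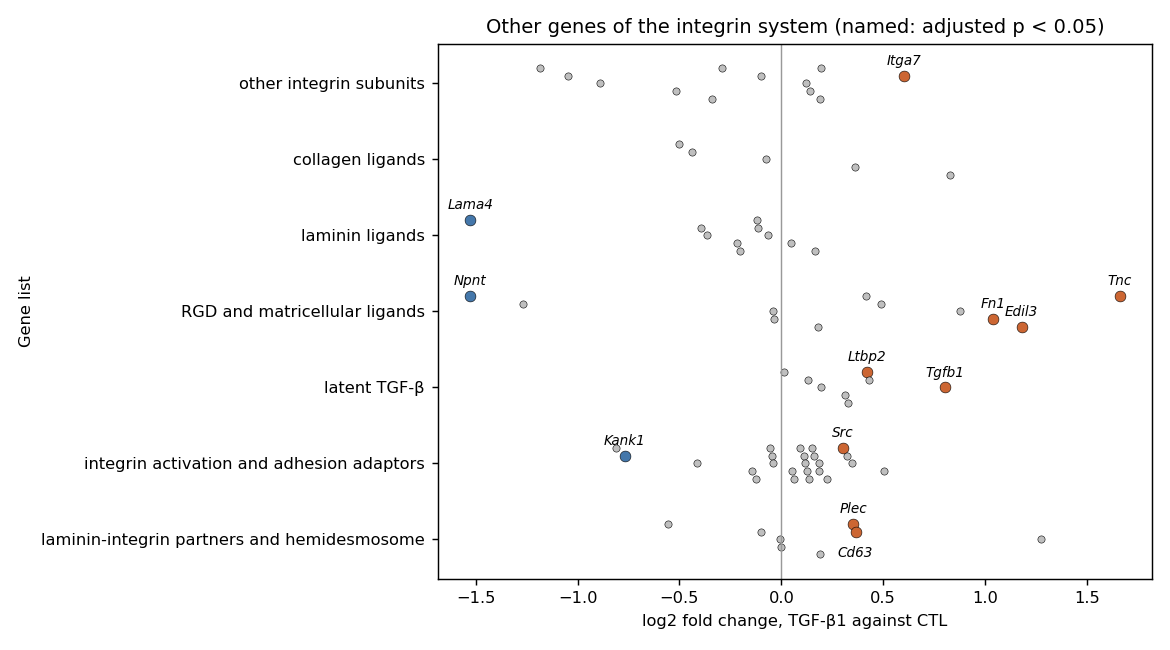
Log2 fold change, TGF-β1–treated against CTL, of each tested gene in 7 lists of the integrin system other than the 10 members. Colored and named points have an adjusted p under 0.05, with 9 genes higher and 3 lower over the lists.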

How the data were processed

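Poly(A) mRNA was isolated from 100 ng of RNA per culture and sequenced as single 50-bp reads. Per the labels, the authors trimmed reads with Trim Galore, aligned them to GRCm38 (mm10) with STAR 2.4.1d and counted them per gene with HTSeq 0.6.1. The deposited values are these raw read counts, without normalization. The counting's strand setting and annotation release are not given in the sources used here. Rows that name no gene (25.4 to 25.9% of the reads in the files, mostly reads without a unique alignment) were left out. No library pair agreed within sampling noise, since the smallest chi-square was 6.70 per degree of freedom.

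Symbols, positions and union exon lengths came from GENCODE M21, which matched 46005 of 46517 identifiers. The test used edgeR 4.0.16 in R 4.3.3, with filterByExpr, TMM, robust glmQLFit and two-sided glmQLFTest without a block, with Benjamini-Hochberg adjustment over 15862 genes. Normalized counts are TMM-scaled to the geometric mean library size. RPKM values were computed here from TMM-scaled CPM per kb of union exon. Ratios within libraries were compared by two-sided exact permutation tests. Intervals are at 95% and, like the floor of 3 counts, rest on reads without molecular identifiers.

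The methods describe an unpaired test, so the block was an alternative. Same-numbered CTL and TGF-β1–treated cultures deviated from their group means together (r = 0.498 to 0.759 over genes, against -0.717 to 0.329 between different numbers), so the numbers were taken to pair the cultures. Deviations from the mean of a small group are not independent, so part of this contrast is built in. The labels do not state a pairing. Other alternatives were DESeq2 1.42.0, limma-voom (limma 3.58.1), RLE factors, library size only, other count filters, a threshold of 0.01, and leaving out cultures. The count models were tested on simulated data. The members and lists were chosen with earlier results of these data known. Of each list, up to 4 genes past the threshold with the largest change and at least 1 CPM were named, or the most abundant where none passed. Other integrin subunits with at least 1 CPM, and Fn1 and the TGF-β genes for their RGD codons, were also named. So were the collagen genes past the threshold with the block. Figures were drawn with matplotlib 3.10.9.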

Additional observations from a re-analysis of the deposited data

How the results depend on the processing

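All 170 alternative results of the members, 17 for each gene, kept the direction of the main result. The alternative with a threshold of 0.01 used the main fit, so its direction could not differ. The count of members called higher was 3, and became 1 at a threshold of 0.01, 1 to 3 when a single culture was left out, 1 without replicate 3 in both groups and 0 without replicate 1 in both groups. The count of members called lower was 1, and became 2 with DESeq2, 6 with the replicate block, 0 at a threshold of 0.01, 0 to 1 when a single culture was left out, 2 without replicate 2 in both groups, and 0 without replicate 1 or replicate 3 in both groups. With the block 4 members were called higher.

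Over all genes, the count called higher was 508 with library size only, 2388 with the replicate block, 127 at a threshold of 0.01, 109 to 516 without a single culture, 95 without replicate 3 in both groups and 0 without replicate 1 in both groups. The count called lower was 3037 with the replicate block, 192 at a threshold of 0.01, 186 to 807 without a single culture, 190 without replicate 3 in both groups and 0 without replicate 1 in both groups. In that edgeR fit without replicate 1, 1938 genes had an unadjusted p under 0.05, and Itgb3 stood at 1.42 (adjusted p = 0.212), Itga1 at -1.54 (adjusted p = 0.238), Itga5 at 1.32 (adjusted p = 0.375) and Itgb1 at 0.55 (adjusted p = 0.349). Without replicate 3 in both groups, the adjusted p was 0.0511 for Itga1, 0.115 for Itga5 and 0.101 for Itgb1. Over the 17 alternatives the adjusted p ranged from 3.72e-12 to 0.238 for Itga1, 0.00785 to 0.689 for Itga2, 0.000881 to 0.735 for Itga3, 4.81e-05 to 0.375 for Itga5 and 0.000694 to 0.633 for Itga6. It ranged from 0.0181 to 0.724 for Itgav, 7.95e-06 to 0.349 for Itgb1, 7.44e-28 to 0.212 for Itgb3, 5.41e-05 to 0.672 for Itgb6 and 6.30e-05 to 0.505 for Itgb8. Fits that leave 2 cultures a group have fewer degrees of freedom.

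The log2 difference of collagen-binding to laminin-binding α subunits reversed to -0.13 with raw counts in place of counts per kb of exon. The median log2 fold change of all genes was -0.08 with library size only. Without a single culture, the log2 fold change ranged from 0.16 to 0.43 for Itga2, -0.55 to -0.17 for Itga3, -0.96 to -0.44 for Itga6 and -0.31 to -0.10 for Itgav, none of them past the threshold. Ratios within pairs cannot give a p under 0.25.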
